A study of Mus musculus with 8 samples.

Results

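The genes described are 10 components of the nuclear transport machinery, the importin alpha adaptors *Kpna1*, *Kpna2*, *Kpna3*, *Kpna4* and *Kpna6*, the importin beta *Kpnb1*, the import receptor *Tnpo1*, the exportins *Xpo1* and *Cse1l*, and the GTPase *Ran*. They were selected on the measured null against wildtype difference of *Kpna2*, one of the largest falls of the comparison, and the other 9 were taken as its partners in transport. Every probe that the platform annotation assigns to a member was followed, 15 of the 45281 probes on the array. Of these, 13 could be traced in the signal table and 12 passed the detection filter (a probe counted as detected at p under 0.05, and had to be so on 4 or more of 8 arrays), among 19841 probes that passed it in all. All 10 genes kept at least 1 probe.

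*Bapx1*-expressing cells were sorted by FACS from E12.5 mouse spleen primordia, and total RNA of 4 null and 4 wildtype cell populations was hybridized to Illumina MouseWG-6 BeadChips. In null embryos (homozygous, *Bapx1* tm4.Tlu/tm4.Tlu) the EGFP reporter interrupts the gene behind its start codon. In wildtype embryos (written by the study as *Bapx1* +/tm2.Tlu) EGFP is read from an internal ribosomal entry site that was placed in the 3' UTR, and *Bapx1* stays intact. Both lines are on a C57BL/6J;129 background, and in both the endogenous *Bapx1* promoter drives the EGFP that defines the sorted cells, so every array carries a reporter allele and none is from unmodified mice. How many embryos were pooled for a population is not given in the sources used here. Reporter design, allele copies, mouse line and the cells that pass the sort change together with the genotype and cannot be told apart from it. In sorted populations read in bulk, fewer cells that express a gene and less RNA per cell cannot be told apart either.

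Proteins with a classical nuclear localization signal are bound by an importin alpha adaptor, which is carried through the nuclear pore by importin beta. Ran in its GTP form, made inside the nucleus, releases the cargo, and Cse1l returns the empty adaptor to the cytoplasm. Xpo1 exports proteins with a leucine-rich export signal, and Tnpo1 imports RNA-binding proteins such as hnRNP A1 without an adaptor. *Kpna2* is known in mouse embryonic stem cells as the predominant adaptor, whose level falls as the cells differentiate, and in many tissues it is associated with proliferating cells.

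Between 42.0 and 44.5% of probes were detected per array, with a mean signal of 302.4 to 398.1 on null and 361.7 to 472.5 on wildtype arrays. Precision is limited by the number of arrays. Within-genotype correlations over kept probes were 0.9618 to 0.9905 among null and 0.985 to 0.9942 among wildtype arrays, and the first principal axis of the within-genotype deviations, 1 axis common to both, took up 56.9% of their variance. *Bapx1* itself (now *Nkx3-2*) had 2 probes, each detected on every null array and not well above background on any wildtype array, at least 3.79-fold and at least 2.99-fold higher in null. The positions of these probes are not given, so they check no label. Of 9 splenic mesenchyme markers on the array, 8 were detected on every array of both genotypes and *Tlx1* on none. Of the 8, 3 were lower and 2 higher in null, and their mean log2 intensity was 10.87 to 11.07 on null and 11.22 to 11.32 on wildtype arrays, without overlap. Markers of gut and pancreatic epithelium and of neural cells also moved with genotype. The mean log2 intensity of the epithelial list (4 genes tested, 4 higher in null) was 5.88 to 8.05 on null and 5.36 to 5.82 on wildtype arrays, and that of the neural list (3 genes tested, 2 higher) was 7.02 to 8.05 on null and 5.61 to 6.25 on wildtype arrays. Their part in the member values was not tested.

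*Kpna2* was far lower in null than in wildtype cells, and it also varied more than nearly any other gene between arrays of the same genotype. Its single probe, ILMN_2878355, had background-subtracted signals of 47.6, 20.4, 1.5 and 122.9 on null arrays 1 to 4, against 610.4, 363.5, 204.3 and 568.3 on wildtype arrays 1 to 4. After normalization the log2 intensities were 6.38, 5.20, 4.59 and 7.14 in null and 8.96, 8.66, 7.68 and 9.09 in wildtype. The 2 genotypes did not overlap, and the brightest null array lay 0.54 below the dimmest wildtype array. Null array 3 was not above background and null array 4 was the highest of its group, while wildtype array 3 was the lowest of its group. The means were 5.83 ± 1.15 in null and 8.60 ± 0.64 in wildtype (SD, n = 4 each), a log2 difference of -2.77, which is 6.81-fold lower in null. This was the sixth lowest of 10766 genes at their brightest kept probe, between neighbours at -2.80 and -2.75. Because this difference chose the genes, it is given as a description with no test.

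In the deposited value table, which floors the signal at 1 before the logarithm, the *Kpna2* values were -1.93, -3.59, -7.19 and -0.99 in null and 0.93, 0.59, -0.27 and 1.04 in wildtype. The order of the null arrays was the same as in the normalized intensities, and the log2 difference was -4.0. Without null arrays 2 and 3 and wildtype array 3, the lowest of each genotype, the difference in normalized intensity was -2.14, a choice made after seeing the data.

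The *Kpna2* promoter is shown because it alone, among the promoters of 6 members found in the RefSeq table (GRCm38.p6; 250 bases before to 50 after the start), holds the letters TTTGAA of the CHR element, which is known from genes expressed in G2 and M phase. The stretch below lies at chr11:106999535-106999564 on the minus strand, from base -39 to base -10 before the annotated start. The capitals mark the CHR letters, which lie on the opposite strand and so read TTCAAA here, and the CCAAT box that follows them without overlap.
*Kpna2* promoter: gtttTTCAAAcctaCCAATgaacgcgcagc
Searched on both strands, TTTGAA occurred in 17.9% and CCAAT in 37.4% of the 32851 promoters in the table. For TTTGAA, 1 holder among 6 members is close to the share over all promoters and is not read as a trait of *Kpna2*. CCAAT was also in the promoters of *Kpna4*, *Kpnb1*, *Tnpo1* and *Xpo1*. These matches describe the letters in the window and no binding was measured in this series of arrays.

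**Figure D1:**
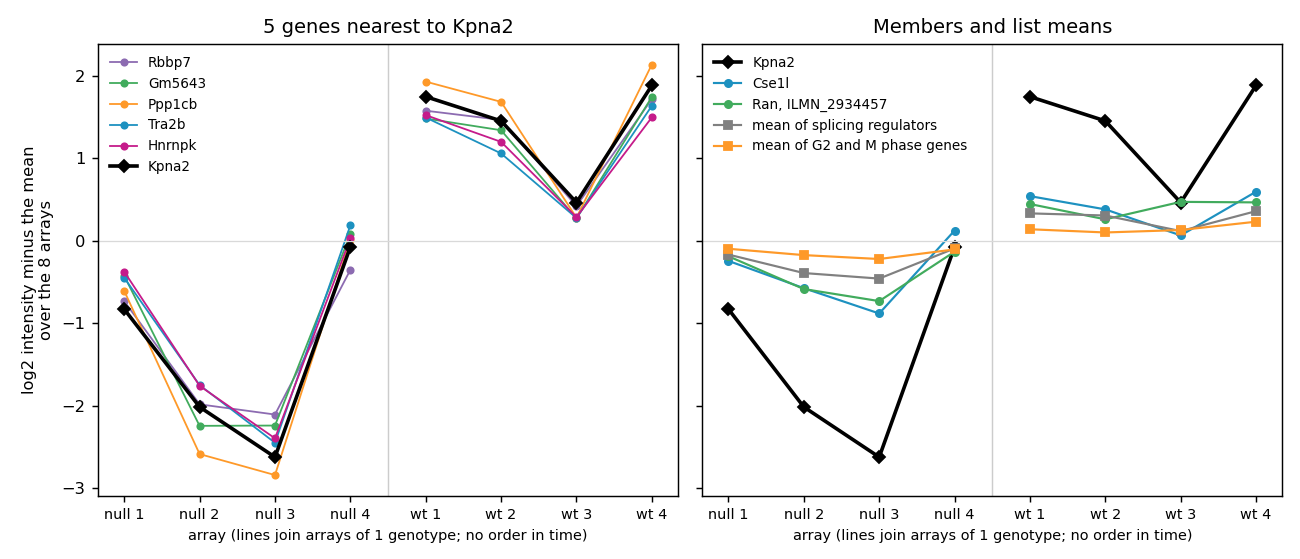
Log2 intensity minus the mean over the 8 arrays (y axis) for each null and wildtype (wt) array (x axis), with the 5 genes nearest to Kpna2 on the left, and Cse1l, Ran and the array means of 2 gene lists on the right. Kpna2 is in black in both panels. Null arrays 2 and 3 and wildtype array 3 are low within their genotype in every gene on the left, which follows from choosing these genes by nearness to Kpna2.

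The genes whose array-to-array pattern was most like that of *Kpna2* were sought by the root mean square distance of centred log2 intensities over the 8 arrays, among 10765 other genes. The nearest were *Rbbp7*, a histone-binding chromatin protein (distance 0.23), the pseudogene *Gm5643* (0.26), *Ppp1cb*, a protein phosphatase catalytic subunit (0.28), and the RNA-binding splicing factors *Tra2b* and *Hnrnpk* (0.28 each), against a median distance of 1.66 over all genes. *Rbbp7* had log2 intensities of 7.89, 6.64, 6.51 and 8.27 in null and 10.19, 10.08, 9.04 and 10.33 in wildtype. *Tra2b* had 8.40, 7.10, 6.40 and 9.04 in null and 10.34, 9.91, 9.13 and 10.48 in wildtype. Both repeated the low values of null arrays 2 and 3 and of wildtype array 3, which follows from choosing them by nearness to *Kpna2* on these arrays. This distance depends on the size of the differences between arrays as well as on their order, and *Kpna2* was chosen for a large one, so the ranks of the other members are not read.

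Among the other importin alpha adaptors none was called lower and 1 was called higher, beside 20.3% lower and 21.6% higher among all kept probes. A count this small is not read as a trait of the adaptors. *Kpna6*, of the same adaptor subfamily as *Kpna1*, was the member that rose. Its log2 intensity was 5.72, 5.49, 5.85 and 5.53 in null and 5.46, 5.09, 5.04 and 5.24 in wildtype cells, with every null array above every wildtype array. The means were 5.65 ± 0.17 in null and 5.21 ± 0.19 in wildtype, a difference of 0.44 ± 0.13 (SE; adjusted p = 0.0219, limma). This probe was dim, detected on 4 null but only 2 wildtype arrays, and its unnormalized signals overlapped, with 26.0, 28.6, 35.1 and 29.5 in null and 37.6, 17.1, 16.3 and 24.6 in wildtype. The call was lost in 10 of 22 alternatives, among them leaving out null array 1 (adjusted p = 0.0566), null array 3 (0.0534), wildtype array 2 (0.0611) or wildtype array 4 (0.0511); over all its alternatives the adjusted p ranged between 0.00782 and 0.874.

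*Kpna1* had log2 intensities of 9.21, 9.02, 9.02 and 9.35 in null and 9.32, 9.36, 9.18 and 9.52 in wildtype, overlapping, with a difference of -0.19 (95% interval -0.45 to 0.06, adjusted p = 0.189, limma) that turned to 0.23 under median absolute deviation scaling. *Kpna3* had 11.07, 10.95, 11.24 and 11.09 in null and 10.69, 10.99, 10.88 and 10.95 in wildtype, a difference of 0.21 (interval -0.02 to 0.44, adjusted p = 0.128, limma) that was 0.91 under median absolute deviation scaling (adjusted p = 0.0521). In null *Kpna1* had its lower values on arrays 2 and 3 and in wildtype on array 3, as at *Kpna2*. *Kpna4*, closely related to *Kpna3*, had 5.38, 5.14, 4.88 and 5.42 in null and 5.10, 4.62, 4.93 and 4.79 in wildtype, a difference of 0.34 (interval 0.01 to 0.68, adjusted p = 0.0933, limma). Each of the 3 had overlapping genotypes and missed the threshold, and the intervals leave room for shifts of either sign at *Kpna1* and *Kpna3*. *Kpna4* was detected on 3 null and 1 wildtype array and passed the filter mainly through the null arrays. Its difference passed the threshold without null array 3 (0.45, adjusted p = 0.0357), and its adjusted p over all alternatives ran between 0.014 and 0.563.

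**Figure D2:**
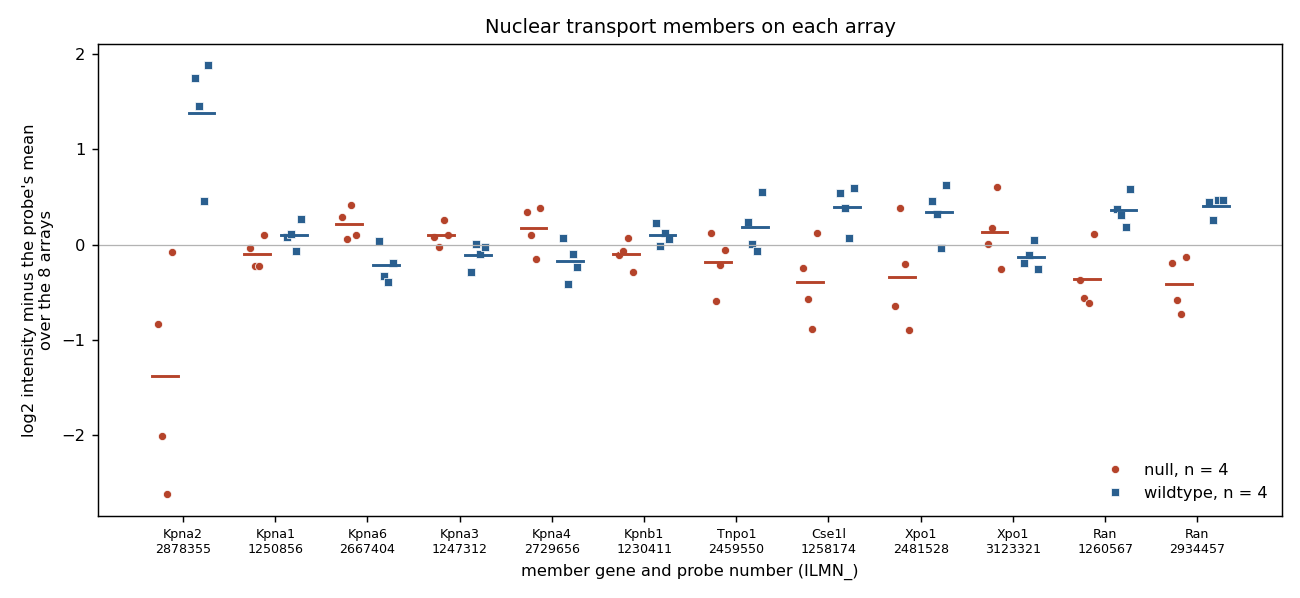
Log2 intensity minus the probe's mean over the 8 arrays (y axis) for the 12 kept member probes (x axis), with 4 null arrays (circles) left of 4 wildtype arrays (squares) and bars at the group means. The genotypes are separate at Kpna2, Kpna6 and both Ran probes, and the Kpna2 points spread over a wider range than those of any other member.

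*Kpnb1*, the importin beta that carries all of these adaptors, was a bright probe with no call. Its signals were 5195.5 to 6942.0 on null and 6420.0 to 9693.9 on wildtype arrays, and its log2 intensity was 12.68 ± 0.15 in null and 12.88 ± 0.10 in wildtype. The difference of -0.20 (interval -0.43 to 0.03, adjusted p = 0.15, limma) did not pass the threshold. Median absolute deviation scaling turned the difference to 0.80, also not past the threshold.

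*Tnpo1* was measured by 1 usable probe, ILMN_2459550, with log2 intensities of 6.04, 5.32, 5.71 and 5.86 in null and 6.16, 5.93, 5.85 and 6.47 in wildtype. The genotypes overlapped, and the difference of -0.37 (interval -0.78 to 0.04) missed the threshold (adjusted p = 0.132, limma). Its 2 other probes, ILMN_1213915 and ILMN_2479932, held identical values in the value table, the profile of a signal at the floor of 1 on all 8 arrays, which 8079 bead addresses share. They could be traced to no single address and gave no level.

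*Cse1l*, the exportin that recycles importin alpha, fell in null cells. Its log2 intensity was 9.37, 9.04, 8.74 and 9.74 in null and 10.16, 9.996, 9.68 and 10.21 in wildtype. Null array 4 lay just above wildtype array 3, so the genotypes overlapped, and null arrays 2 and 3 were the lowest, as at *Kpna2*. The means were 9.22 ± 0.43 in null and 10.01 ± 0.24 in wildtype, a difference of -0.79 ± 0.21 (SE; adjusted p = 0.0171, limma). Scaling the arrays by their median absolute deviation, as the study's methods do, gave -0.30 (adjusted p = 0.424), under which the median of all probes moved to 0.29 in place of 0.04. Leaving out wildtype array 4 gave an adjusted p of 0.0525, and the range over all alternatives was 0.00225 to 0.826.

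*Xpo1*, the exportin for leucine-rich signals, gave opposite signs at its 2 probes. ILMN_2481528 had log2 intensities of 4.97, 6.00, 5.41 and 4.72 in null and 6.07, 5.94, 5.58 and 6.25 in wildtype, a difference of -0.68 ± 0.27 (SE; adjusted p = 0.0651, limma), and was detected on 2 null and 4 wildtype arrays. Here null array 2 was the highest of the null arrays and within the wildtype range, unlike at *Kpna2* and *Cse1l*. ILMN_3123321, detected on all 8 arrays, had 5.66, 5.83, 6.26 and 5.40 in null and 5.46, 5.55, 5.70 and 5.40 in wildtype, a difference of 0.26 (interval -0.13 to 0.65, adjusted p = 0.249, limma). The distance between the probes within an array, ILMN_3123321 over ILMN_2481528, was 0.51 ± 0.46 in null and -0.43 ± 0.41 in wildtype, and this difference of 0.94 did not pass an exact two-sided permutation test over the arrays (p = 0.0571, 0.114 adjusted over the 2 genes with several kept probes; the smallest p allowed is 0.0286). Without null array 2, ILMN_2481528 fell by 0.93 (adjusted p = 0.0137), without wildtype array 3 it fell by 0.81 (0.0479), and without null arrays 2 and 3 and wildtype array 3 it fell by 1.24 (0.00147); its adjusted p over all alternatives lay between 0.00147 and 0.776. The position of either probe in the transcript is not given here, so no direction is drawn for *Xpo1*.

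*Ran* was called lower at both probes that could be read. ILMN_2934457 had log2 intensities of 7.71, 7.31, 7.17 and 7.77 in null and 8.34, 8.16, 8.37 and 8.36 in wildtype, with no overlap, and was detected on all arrays. The means were 7.49 ± 0.29 in null and 8.31 ± 0.10 in wildtype, a difference of -0.82 ± 0.15 (SE; adjusted p = 0.00309, limma), which is 0.567 of the wildtype level. ILMN_1260567 had 4.95, 4.76, 4.71 and 5.44 in null and 5.70, 5.64, 5.51 and 5.90 in wildtype, also without overlap. Its difference was -0.72 ± 0.17 (adjusted p = 0.00944, limma), but only 1 null array measured it above background, against all 4 wildtype arrays, so that it passed the filter through wildtype and its size is poorly set. The difference was -0.38 with an offset of 50 and -1.64 in the value table. The distance between the 2 probes was 2.52 ± 0.18 in null and 2.62 ± 0.18 in wildtype (exact permutation p = 0.457), but in the deposited value table it was 0.72 ± 0.64 in null and -0.04 ± 0.32 in wildtype, the opposite sign of difference (exact permutation p = 0.114). The remaining *Ran* probe, ILMN_2721231, was not detected on any array, with signals of -5.8 to 7.5 in null and -7.4 to -1.2 in wildtype. Under median absolute deviation scaling ILMN_2934457 was at -0.59 and missed the threshold (adjusted p = 0.0648), while ILMN_1260567 kept its call; the adjusted p of ILMN_2934457 over all alternatives was between 0.000988 and 0.961.

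**Figure D3:**
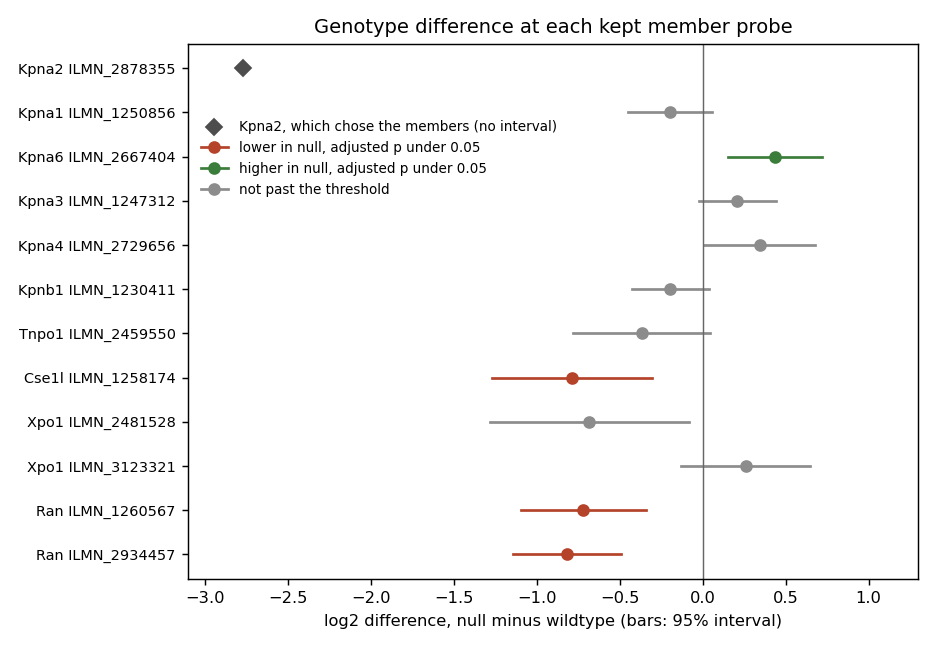
Log2 difference of null minus wildtype (x axis) with its 95% interval at each kept member probe (rows), coloured by call at an adjusted p under 0.05 over all probes. Cse1l and both Ran probes lie below 0, Kpna6 lies above it, and the Kpna2 point at -2.77 has no interval because it chose the members.

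Counted over the 11 kept member probes other than that of *Kpna2*, 3 were lower in null (*Cse1l* and both probes of *Ran*), 1 was higher (*Kpna6*) and 7 did not pass the threshold. Among all 19841 kept probes 20.3% were called lower and 21.6% called higher, so the members' counts are read against a comparison in which 8312 probes differed. In 3 of the 11 (*Kpna6* and both probes of *Ran*) the genotypes did not overlap, against 38.3% of all kept probes. The 2 *Ran* probes stand for 1 gene. *Ran* ILMN_1260567 was detected on 4 wildtype arrays and 1 null array, and *Kpna6* on 4 null and 2 wildtype arrays. Both passed the filter mainly through the genotype where they were higher, so these 2 calls are weak entries in the count. The differences of the 11 probes ran between -0.82 and 0.44 with a median of -0.20, beside a median of 0.04 over all kept probes. A total of 6 member genes had no kept probe past the threshold. Without null arrays 2 and 3 and wildtype array 3, chosen after seeing the data, 4 probes were lower and 1 was higher, which was *Kpna4* and no longer *Kpna6*. Under median absolute deviation scaling 1 was lower and 0 higher, under median centring 5 and 0, and without wildtype array 4 the counts were 2 lower and 0 higher. Of the calls over all probes, 26.9% were lower under median absolute deviation scaling and 69.6% under median centring, against 48.5% in the main fit.

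The mean of splicing regulators had its low and high arrays where *Kpna2* and *Cse1l* did, and that of G2 and M phase genes did so in part. The array mean of the splicing regulators, as the deviation in log2 intensity, was -0.45, -0.67, -0.74 and -0.37 on null and 0.05, 0.03, -0.16 and 0.08 on wildtype arrays. That of the G2 and M phase genes was -0.25, -0.32, -0.37 and -0.25 on null and -0.01, -0.05, -0.02 and 0.08 on wildtype arrays. Null array 3 was lowest and null array 2 next lowest in both lists, and wildtype array 3 was the lowest wildtype array for splicing regulators. For the G2 and M phase genes wildtype array 2 was lowest, and null array 4 did not lie above null array 1. Of the 29 splicing regulators tested 15 were lower and 1 higher in null, and of the 25 G2 and M phase genes 11 were lower and 0 higher (1 higher at an unadjusted p under 0.05 in limma), beside 16.8% lower and 25.7% higher over all genes. Under median absolute deviation scaling 5 splicing regulators were lower and 1 higher, with a median difference of 0.29. Of the G2 and M phase genes 1 was lower and 2 higher, with a median of 0.34. The direction of both medians turned, but the median of all probes was also raised by that scaling, to 0.29 from 0.04. Every null array lay below every wildtype array in both means, which come from genes of these same arrays. Genotype and list mean therefore cannot be told apart in a fit that holds both, and no conclusion is drawn from the loss of calls. With the splicing mean as a covariate 0 of the 11 member probes was called by limma (2 lower and 2 higher at an unadjusted p under 0.05). *Cse1l* was at 0.50 and *Ran* ILMN_2934457 at -0.18, and the *Kpna2* difference turned to 0.74. With the G2 and M phase mean 0 was called (0 lower and 1 higher at an unadjusted p under 0.05). What these lists contribute to the member differences was not tested.

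The rest of the transport machinery was read from 68 further genes in 5 lists, of which 59 had a kept probe. Each was taken at its brightest kept probe, with limma's p-values adjusted over all probes. In all, 21 were lower, 8 were higher and 30 did not pass the threshold, beside 16.8% lower and 25.7% higher among all 10766 genes. Their median difference was -0.07, against 0.09 over all genes. Leaving out wildtype array 4 gave 14 lower and 3 higher, and leaving out null arrays 2 and 3 and wildtype array 3 gave 16 lower and 4 higher. Under median absolute deviation scaling the counts were 4 lower and 14 higher of 59, so most of the 21 lower calls were not kept. Of all 19841 kept probes 6239 were called under that scaling, 1681 of them lower. That scaling gave 26.9% of its 6239 calls over all probes as lower, median centring 69.6% of 6712, and the main fit 48.5% of 8312. Counts of single lists under other scalings carry this shift over all probes and are not read as a change of the transport genes alone.

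The import list, which holds receptors of the importin beta family and the adaptor *Snupn*, had 3 lower and 4 higher of 9. Over all genes 16.8% were lower and 25.7% higher. The import list had 0 lower and 5 higher under median absolute deviation scaling and 3 lower and 1 higher under median centring. *Ipo5*, which imports ribosomal proteins and histones, had log2 intensities of 10.86, 10.48, 10.30 and 10.94 in null and 11.46, 11.56, 11.22 and 11.51 in wildtype, a difference of -0.79 (adjusted p = 0.00483, limma), although its other probe was at 0.34. *Ipo8* was lower at 8.75 ± 0.20 in null and 9.24 ± 0.17 in wildtype (adjusted p = 0.0152). *Ipo13* was higher, at 10.38 ± 0.18 in null and 9.69 ± 0.07 in wildtype (adjusted p = 0.00157), and so was *Snupn*, which adapts spliceosomal snRNPs to importin beta, at 9.02 ± 0.08 in null and 8.66 ± 0.12 in wildtype (adjusted p = 0.0147). The genotypes were separate at each of these 4 genes, which follows in large part from naming the genes with the largest absolute moderated t. Of all kept probes 38.3% had separate genotypes.

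Among the 5 other exportins, 2 were lower and 2 higher, beside 16.8% lower and 25.7% higher over all genes. The exportins had 0 lower and 2 higher under median absolute deviation scaling and 3 lower and 0 higher under median centring. *Xpot*, which exports tRNA, was at 10.83 ± 0.23 in null and 11.39 ± 0.13 in wildtype, a difference of -0.56 (adjusted p = 0.00936, limma), with its second probe at -1.18. *Xpo4* differed by -0.42 (adjusted p = 0.0464, limma), with overlapping genotypes and dim signals of 21.9 to 42.4 in null and 35.4 to 65.6 in wildtype. *Xpo5*, the exportin of microRNA precursors, was higher by 0.29 (adjusted p = 0.0344), and *Xpo6*, the actin exportin, by 0.33 (adjusted p = 0.0285) with its second probe at 0.01.

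Under median absolute deviation scaling 0 of the 6 genes that regulate Ran were lower and 2 higher, with a median difference of 0.68. Beside 16.8% lower and 25.7% higher over all genes, 1 of the 6 passed the threshold in the main fit, as lower. This was *Ranbp2*, a nucleoporin on the cytoplasmic face of the pore, which had 8.68, 8.16, 8.21 and 8.62 in null and 8.88, 8.89, 8.87 and 8.99 in wildtype, a difference of -0.49 (adjusted p = 0.0168, limma), and its other probes ran between -1.11 and -0.30. *Rcc1*, the exchange factor that loads Ran with GTP, was at 9.16 ± 0.24 in null and 8.86 ± 0.16 in wildtype (adjusted p = 0.107). *Rangap1*, which activates the GTP hydrolysis of Ran, was at 12.06 ± 0.16 in null and 11.80 ± 0.03 in wildtype (adjusted p = 0.059, limma). Its other probes ran between -0.21 and 0.37. *Rangrf* differed by 0.24 (adjusted p = 0.0763, limma).

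Nucleoporins, the longest of the 5 lists, had most lower calls, with 11 lower, 1 higher and 12 not past the threshold of 24 tested. Their lower share was 45.8%, beside 40.0% of the exportins, 33.3% of the import list and 16.8% of all genes. Under median absolute deviation scaling 3 nucleoporins were lower and 4 higher. *Nup50*, a nucleoporin that takes part in releasing cargo from importin alpha, had log2 intensities of 6.15, 6.25, 6.07 and 6.24 in null and 7.56, 7.26, 6.79 and 7.37 in wildtype, a difference of -1.07 (adjusted p = 0.00121, limma), and its other probes ran between -0.95 and 0.07. *Nup160*, a scaffold subunit of the outer ring, was at 9.86 ± 0.38 in null and 10.87 ± 0.20 in wildtype (difference -1.0, adjusted p = 0.00383). The inner ring subunits *Nup155* and *Nup205* were lower by differences of -0.90 (adjusted p = 0.00306, limma) and -0.46 (adjusted p = 0.00508, limma). The second probe of *Nup155* was at -0.225. The null arrays of *Nup50* lay within a narrow range, without the low arrays 2 and 3 seen at *Kpna2*, whereas *Nup160* had its lowest values on those arrays (10.02, 9.73, 9.42 and 10.30 in null; 10.95, 10.93, 10.57 and 11.01 in wildtype).

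Among 15 genes of mRNA export 4 were lower and 1 higher, beside 16.8% lower and 25.7% higher over all genes. Under median absolute deviation scaling 1 of the 15 was lower and 1 higher. The THO complex couples transcription to export. *Thoc2* had 7.44, 7.71, 7.18 and 7.43 in null and 8.99, 9.01, 8.41 and 9.17 in wildtype, a difference of -1.46 (adjusted p = 0.000492, limma), with its second probe at -0.49. *Thoc1* differed by -1.02 (adjusted p = 0.00676), and *Nxt1*, a cofactor of the mRNA export receptor, by -0.32 (adjusted p = 0.0359). *Thoc3* was higher, at 9.71 ± 0.17 in null and 9.24 ± 0.15 in wildtype (adjusted p = 0.013, limma), with its second probe at 0.13.

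**Figure D4:**
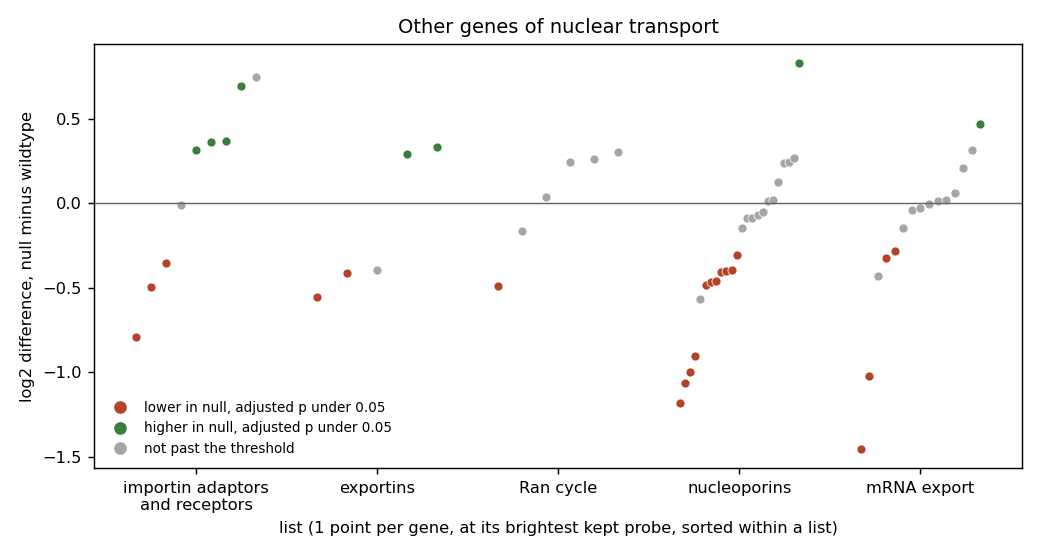
Log2 difference of null minus wildtype (y axis) for 59 other transport genes in 5 lists (x axis), 1 point per gene at its brightest kept probe, coloured by call at an adjusted p under 0.05. Of 24 nucleoporins 11 are lower and 1 is higher, and of 9 genes in the importin list 3 are lower and 4 higher. Over all genes 16.8% are lower and 25.7% higher.

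The spread between arrays of one genotype set *Kpna2* apart from the other members. Its SD of 1.15 in null was larger than that of 99.7% of kept probes, and 63 kept probes had an SD as large or larger, itself among them; its SD of 0.64 in wildtype was larger than that of 99.0%. The median SD over all kept probes was 0.20 in null and 0.15 in wildtype, and the 95th percentile was 0.59 in null and 0.41 in wildtype. After *Kpna2*, the widest members in null were *Xpo1* at ILMN_2481528 (0.56) and *Cse1l* (0.43). The SD was larger in null than in wildtype at 10 of the 12 kept member probes, beside 66.1% of all kept probes, and no test of these variances was made with 4 arrays a genotype.

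**Figure D5:**
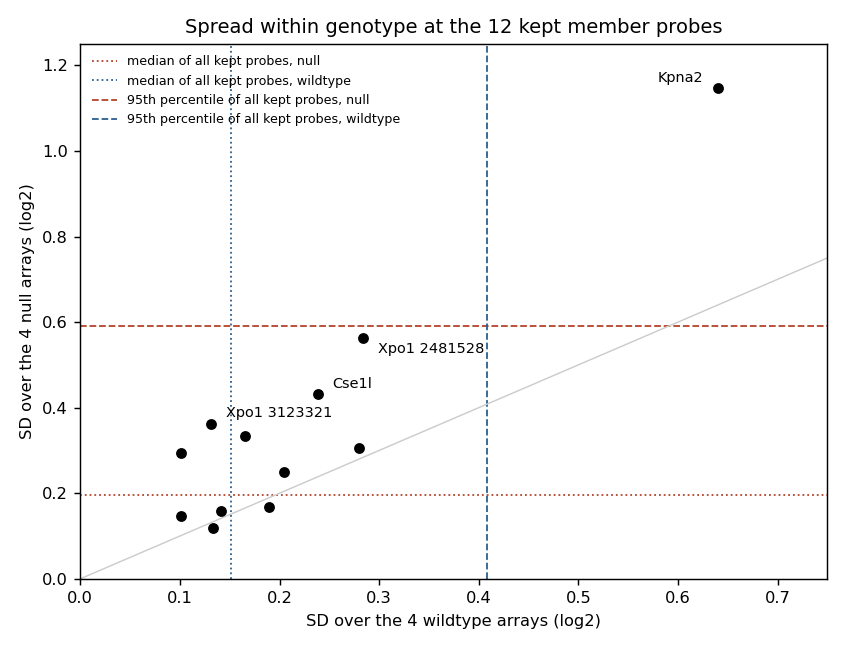
SD of log2 intensity over the 4 null arrays (y axis) against the SD over the 4 wildtype arrays (x axis) for the 12 kept member probes, with lines at the median and the 95th percentile of all kept probes and a grey line of equality. Kpna2 lies beyond both 95th percentiles, at 1.15 in null and 0.64 in wildtype.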

How the data were processed

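Each of the 8 samples was hybridized to one single-colour array. The authors made background-subtracted probe intensity values in GenomeStudio (version not given in the sources used here) and deposited them without normalization between arrays, each with a detection p-value, deposited as 1 minus p and turned before use. The deposited log2 value table equals the log2 of the signal floored at 1, centred on the array median and on a per-probe baseline of unstated origin. Signal rows were joined to probe names by their profile over the 8 arrays (34536 of 45281 matched 1 probe, tolerance 0.001 in log2), and of the 19841 kept probes 16663 carry 1 symbol, 11 several and 3167 none. Intensities were processed by neqc (normexp, offset 16, quantile, log2) and genotypes were compared (null minus wildtype) with lmFit and eBayes of limma 3.58.1 (statmod 1.5.0, R 4.3.3), two-sided, with Benjamini-Hochberg adjustment over all kept probes and a call at an adjusted p under 0.05. Intervals are 95% from the moderated fit. Its calls were tried on simulated data with independent noise at each probe. Of 100 simulated 2-fold changes 74 were called, of 100 4-fold changes 100, and of 19641 unchanged probes 5. Deviations shared by the probes of an array were not simulated, and the intervals were not tested. Differences between probes used scipy 1.17.1. A fold written as "at least" compares the brighter genotype's mean with dim values raised, array by array, to the lowest detected signal where they fell under it.

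The members, lists and tests were chosen with earlier results of these data known. Named are all members, up to 4 genes per transport list with the largest absolute moderated t, the 5 genes nearest to *Kpna2* and *Bapx1*. Replicates carry the numbers 1 to 4 in both genotypes. Deviations of same-numbered arrays from their group means correlated at 0.168, 0.069, 0.377 and 0.408, and nothing in the labels says that a number marks a shared litter or day, so the numbers were not read as pairs. P-values measure the spread between these sorted populations. Alternatives were the offset, background correction, scaling, value table, detection filter, probe choice, replicate block, covariates, array weights, the methods' t-test, the threshold, and leaving out arrays. Gene symbols are those of the platform annotation, matched to list names through synonyms, and probe positions were not used here.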

Additional observations from a re-analysis of the deposited data

Results flagged for a closer look

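Among 64 groups of 4 arrays tested (12 member probes and 20 named transport genes in each genotype), 3 held an array that lay far from the other 3 relative to the range of its group, where chance flags about 1 in 20. *Ran* at ILMN_2934457 was at 8.16 on wildtype array 2, with the other wildtype arrays between 8.34 and 8.37. This array lay toward null, and all null arrays were lower still. *Thoc3* was at 9.96 on null array 3, with the other null arrays between 9.59 and 9.65. *Snupn* was at 8.84 on wildtype array 3, with the others between 8.59 and 8.62. No group of *Kpna2* was flagged in this way, since its null arrays are spread over their whole range.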

How the results depend on the processing

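With the splicing regulators' array mean added as covariate, limma called 1168 of 19841 probes, with 0 members and 0 of the 59 other transport genes among them (5 of the 59 at an unadjusted p under 0.05), and the sign turned at *Kpna2* (0.74 ± 0.22, SE), *Kpna1* (0.33), *Tnpo1* (0.40), *Cse1l* (0.50), *Ran* ILMN_1260567 (0.15) and *Xpo1* ILMN_3123321 (-0.69). With the mean of the G2 and M phase genes, 17 probes were called, with 0 members and 0 other transport genes (1 at an unadjusted p under 0.05), and the sign turned at *Kpna2* (0.87 ± 1.16, SE), *Kpna1* (0.42), *Tnpo1* (0.78), *Cse1l* (0.59), *Ran* ILMN_1260567 (0.29) and ILMN_2934457 (0.10), and *Xpo1* ILMN_3123321 (-0.84). Each mean separates the genotypes completely, so these fits cannot divide genotype from the lists, and the cause was not tested. Median absolute deviation scaling left 1 member called (*Ran* ILMN_1260567) and 18 transport genes, with *Kpna1* at 0.23 and *Kpnb1* at 0.80. That scaling gave 26.9% of its 6239 calls as lower, median centring 69.6% of 6712, against 48.5% of 8312 with quantile normalization, and the median of all probes was 0.29, -0.08 and 0.04 in turn. With detection at p under 0.01 on all arrays 2 of 5 member probes tested were called, since fewer probes were tested. At an adjusted p under 0.01 the calls were 4152 probes, 2 member probes (both of *Ran*) and 12 transport genes. In the value table the null minus wildtype difference of the distance between the *Ran* probes turned to 0.75, against -0.10 in the normalized intensities (adjusted p = 0.114, exact permutation), and the null SD of *Kpna2* was 2.73, with 1 signal near the floor. Leaving out 1 array in turn gave 5718 to 9890 probes, 2 to 5 member probes and 17 to 34 transport genes, the fewest without wildtype array 4. The null SD of *Kpna2* was 0.91 to 1.33. *Kpna2* differed by -3.21 to -2.36 in these fits. The replicate block (numbers not shown to pair samples, and not every array correlated best with its own number) gave 8847 probes and the 4 member probes of the unblocked fit. The methods' t-test, run here without moderation on the quantile-normalized intensities, gave 9736 probes at its nominal threshold and 6930 after Benjamini-Hochberg. Of the latter 1644 were over 2-fold, and *Cse1l* was lost (adjusted p = 0.0521, t-test). Array weights added *Kpna4* and *Xpo1* ILMN_2481528 to the members called, and median centring lost *Kpna6* and added *Tnpo1* and *Xpo1* ILMN_2481528. Over all alternatives for the 11 tested member probes, 207 results kept direction and call status, including those of probes not called in the main fit. With the direction kept, 16 lost and 9 gained a call, and 13 turned direction. Among those that turned, 2 of *Cse1l*, 2 of *Ran* ILMN_1260567 and 1 of *Ran* ILMN_2934457 also lost their call. *Kpna2* also moved to -4.0 in the value table.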
